A study of Mus musculus with 23 samples.

Results

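The genes described here find DNA breaks, signal them and repair them. The set held 33 genes, and 28 of them had a probe on the array. For 22 of the 33 a probe was detected (detection p under 0.05) on 3 or more of 23 arrays, and the brightest such probe stood for the gene. By role, 5 of 7 end joining genes, 7 of 11 homologous recombination genes, 8 of 12 break sensing and checkpoint genes, and 2 of 3 genes of single-strand breaks and alternative end joining were measured in this way.

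RNA came from spleens of 10-week-old male mice of 2 inbred strains, C57BL/6J and DBA/2J, and each array held an equal pool of RNA from 2 mice. Both strains had unirradiated controls, a low dose group given 10 cGy by a 137Cs source (9 cGy per hour) and a high dose group given 1 Gy by a 60Co source (6 Gy per minute), collected 24 h later. The radiation was gamma rays to the whole body. The 6 groups comprised 4 pools each, or 3 in the case of DBA/2J low dose. Dose, dose rate and radiation source changed together and cannot be told apart.

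A double-strand break is bound by the Mre11-Rad50-Nbn complex, which activates the kinase Atm. Atm marks histone H2ax around the break and acts through Chek2 on the cell cycle. The ends are then either rejoined directly, by end joining with the Ku proteins, Prkdc and the Xrcc4-Lig4 ligase, or copied from the sister chromatid by homologous recombination, which needs Brca1 and Brca2 and works in S and G2 phase. Lymphocytes also use end joining to assemble their antigen receptor genes, and the spleen of the adult mouse holds, besides lymphocytes, dividing red cell precursors.

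Values below are normalized signals on a log2 scale, on which the lowest value of any probe was 7.79 and the median 7.88. Levels of different genes cannot be compared, since each rests on its own probe. All spleen pools had B cell markers (11 of 12 measured, mean level 9.11 to 10.73 over the pools). The arrays detected 14233 to 16002 probes each. The detection p followed the signal only in part (Spearman correlation -0.94 to -0.92 within an array), and 4.68% to 6.38% of the probes with a signal over 500 were not detected. Pools 1 and 3 of DBA/2J low dose stood apart from all other groups, with a median correlation of 0.92 to arrays outside their group. Pool 2 of that group correlated better with other groups (0.97) than with its own (0.95). Pool 1 of C57BL/6J control and pool 1 of C57BL/6J high dose held pancreas transcripts (12 genes, mean 13.91 and 14.22, against 7.87 to 8.26 elsewhere). A gene was called changed at a Benjamini-Hochberg adjusted p under 0.05 over 17176 features in a limma fit to all 6 groups. RNA was taken from whole spleen, so fewer cells of a type and less RNA per cell cannot be told apart.

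Promoter sequences were read for 27 of the 33 genes, from the table of RefSeq gene starts on GRCm38.p6. The words TTTCCCGC, TTTCGCGC, TTTGCCGC and TTTGGCGC, forms of the binding word of the E2F factors that act at the start of S phase, were searched on both strands of 300-base windows (250 before and 50 after the start). At least one was found in 2.61% of 27025 genes and in 6 of the 27 (22.2%): Brca2, Bard1, Rad51c, Chek2, Xrcc6 and Mdc1. CCAAT, on either strand, was found in 41.1% of all genes and in 14 of the 27, and TTTGAA, the word of the cell cycle homology region, in 20.2% and in 3. In Rnf8 a CCAAT shares its last base with a TTTGAA, and no other matches of different kinds overlapped among the 27. The 250 bases before the start are shown for 3 genes with an E2F word (Brca2, chr5:150522371-150522620, plus strand; Chek2, chr5:110839733-110839982, plus strand; Xrcc6, chr15:82016119-82016368, plus strand) and for Xrcc4 (chr13:90089609-90089858, minus strand), which had none and was called higher after the high dose. Capitals mark the E2F words and CCAAT, here all read on the opposite strand.
Brca2: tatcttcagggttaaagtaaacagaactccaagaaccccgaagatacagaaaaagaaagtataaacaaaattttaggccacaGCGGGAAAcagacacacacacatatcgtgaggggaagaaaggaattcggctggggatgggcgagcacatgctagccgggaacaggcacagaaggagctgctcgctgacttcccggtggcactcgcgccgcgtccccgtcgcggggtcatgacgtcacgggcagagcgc
Chek2: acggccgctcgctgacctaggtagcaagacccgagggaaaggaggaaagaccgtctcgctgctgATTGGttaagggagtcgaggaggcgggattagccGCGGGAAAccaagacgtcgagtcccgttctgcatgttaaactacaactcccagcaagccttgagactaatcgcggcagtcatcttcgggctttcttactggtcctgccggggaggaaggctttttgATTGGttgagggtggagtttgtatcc
Xrcc6: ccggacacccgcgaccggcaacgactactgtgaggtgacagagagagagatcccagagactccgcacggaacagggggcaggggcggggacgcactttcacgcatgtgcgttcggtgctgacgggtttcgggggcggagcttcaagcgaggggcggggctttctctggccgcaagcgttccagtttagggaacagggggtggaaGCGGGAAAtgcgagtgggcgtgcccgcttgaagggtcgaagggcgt
Xrcc4: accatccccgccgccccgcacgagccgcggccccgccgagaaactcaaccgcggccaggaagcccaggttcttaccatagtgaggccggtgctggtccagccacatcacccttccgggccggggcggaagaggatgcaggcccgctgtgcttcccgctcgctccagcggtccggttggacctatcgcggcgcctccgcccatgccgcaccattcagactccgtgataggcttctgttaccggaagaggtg
The E2F word began at base -168 in Brca2, -152 in Chek2 and -46 in Xrcc6, counted from the gene's start. A matching word is a description of the sequence and no evidence of binding. Rad54l, Xrcc3 and Brca1 had no E2F word, and their irradiated C57BL/6J pools all lay below the controls (values below).

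After the high dose in C57BL/6J, all 7 homologous recombination genes had a lower mean than in controls, and in 6 of the 7 the high dose pools lay wholly below the control pools. None of the 7 passed the test over all features (limma adjusted p 0.117 to 0.978). Of all features, 6.22% were called in this comparison (3.74% higher, 2.48% lower), 19.9% had an unadjusted p under 0.05 and 17% had groups that did not overlap. Of the 22 members 2 were called, 4 had an unadjusted p under 0.05 and 10 did not overlap. Rad54l, a motor protein of homologous recombination, was at 8.66, 9.28, 9.08 and 9.51 in the C57BL/6J control pools, and at 8.10, 8.13, 8.24 and 8.32 after the high dose. The low dose pools were at 8.22, 8.24, 8.31 and 8.48. Every irradiated C57BL/6J pool was thus below every control pool. The high dose difference was -0.93 ± 0.34 (log2, SE, n = 4 and 4, limma adjusted p = 0.117), and the low dose difference -0.82 ± 0.34 (adjusted p = 0.265). The probe was detected on no low dose array and on 1 of 4 high dose arrays of C57BL/6J, so the levels there are uncertain. The measured control mean was 1.76-fold higher than the low dose mean.

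In DBA/2J, Rad54l was at 9.79, 8.97, 9.01 and 9.05 in control pools and at 8.32, 8.42, 8.71 and 8.68 after the high dose. The groups did not overlap, with a difference of -0.67 ± 0.34 (limma adjusted p = 0.445). The probe was detected on 2 of 4 high dose arrays of DBA/2J. The 3 low dose pools were at 10.83, 8.76 and 10.96. Pools 1 and 3 were the highest of all 23 and pool 2 was below its controls, and the mean difference was 0.98 ± 0.36 (adjusted p = 0.0969). Without pools 1 and 3, which leaves pool 2 alone in that group, it was -0.44.

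Rad51c acts in homologous recombination in a complex with Xrcc3. Its C57BL/6J pools were at 8.30, 8.60, 8.26 and 8.21 in controls, 8.11, 8.16, 8.15 and 8.15 after the low dose, and 8.11, 8.17, 8.19 and 8.12 after the high dose. Both irradiated groups lay below the controls, with differences of -0.20 ± 0.12 each (limma adjusted p = 0.440 and 0.369). In DBA/2J the controls were at 8.50, 8.18, 8.24 and 8.11, the low dose pools at 8.95, 8.28 and 8.92, and the high dose pools at 8.11, 8.13, 8.09 and 8.05. The low dose rise of 0.46 ± 0.12 passed the test (adjusted p = 0.0325), although pool 2 lay within the control range. It was 0.03 without pools 1 and 3, which leaves pool 2 alone in that group.

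Brca2, a mediator of homologous recombination, ranged from 7.99 to 8.10 over the 4 C57BL/6J control pools, and was at 7.91, 7.93, 7.95 and 7.93 after the low dose, and 7.90, 7.89, 7.91 and 7.90 after the high dose. Both irradiated groups lay below all controls. Its probe was detected on 4 of 23 arrays and on none of the irradiated C57BL/6J arrays. The irradiated groups thus have no order between them, and their levels are uncertain. The measured means were 1.10-fold (high dose, limma adjusted p = 0.574) and 1.08-fold (low dose, adjusted p = 0.720) below the controls. In DBA/2J the controls were at 8.33, 8.19, 8.15 and 8.10, the high dose pools at 7.96, 7.98, 7.99 and 8.01, and the low dose pools at 8.88, 8.06 and 8.92. High dose pools were again all below controls (-0.21 ± 0.12, adjusted p = 0.517).

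Bard1, the partner of Brca1 in its ubiquitin ligase, ranged from 7.91 to 7.99 in C57BL/6J controls, from 7.86 to 7.90 after the low dose and from 7.86 to 7.90 after the high dose. In DBA/2J low dose it was at 8.15, 7.89 and 8.11, against 7.88 to 7.97 in controls, a called rise of 0.14 ± 0.042 (limma adjusted p = 0.0463) that pool 2 did not share. Brca1 ranged from 7.91 to 7.94 in C57BL/6J controls and from 7.88 to 7.90 in both irradiated groups, and in DBA/2J from 7.92 to 7.98 in controls and from 7.87 to 7.91 after the high dose. Xrcc3, the partner of Rad51c, ranged from 7.98 to 8.09 in C57BL/6J controls and from 7.90 to 7.97 in both irradiated groups. Brca1, Bard1 and Xrcc3 thus lay just above the lowest value of the scale, where differences are compressed. Rad52, which anneals DNA strands, was the only measured recombination gene whose irradiated C57BL/6J pools overlapped the controls. Its pools ranged from 8.94 to 9.06 in C57BL/6J controls, from 8.88 to 9.11 after the low dose and from 8.83 to 9.04 after the high dose.

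**Figure D1:**
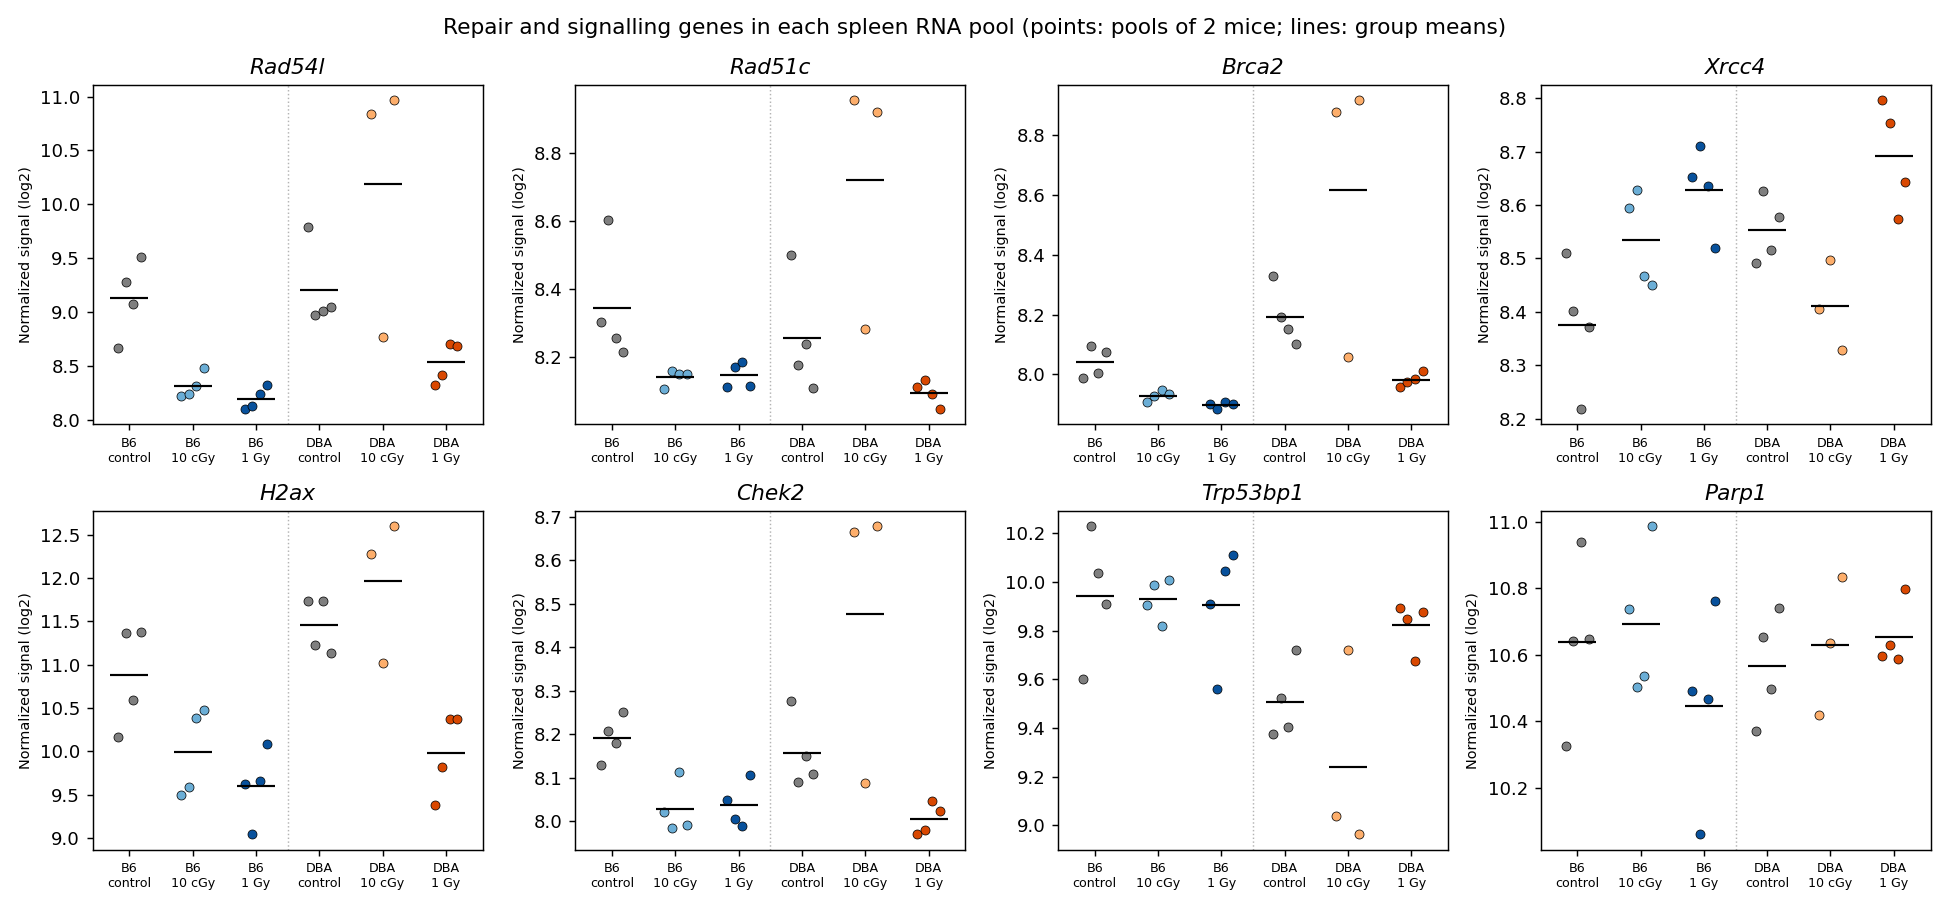
Normalized signal (log2) of 8 genes in each pool, by strain and dose (points are pools, lines are group means; y axes differ). Rad54l, Rad51c and Brca2 were lower in all irradiated C57BL/6J pools than in their controls, and in DBA/2J low dose 2 of 3 pools were far above the rest.

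Among the genes that sense breaks, H2ax, the histone variant phosphorylated around a break, had the largest high dose differences of the 22 genes in both strains with the standard background estimate (described below). Its C57BL/6J pools were at 10.17, 11.37, 10.59 and 11.38 in controls, 9.49, 9.59, 10.39 and 10.47 after the low dose, and 9.62, 9.04, 9.65 and 10.09 after the high dose. The low dose overlapped the controls and the high dose did not. The high dose fall of -1.28 ± 0.37 passed the test (limma adjusted p = 0.0464) and the low dose difference of -0.89 ± 0.37 did not (adjusted p = 0.266). The call was lost in 6 of 8 fits that left out 1 pool (control pool 2, 3 or 4, or high dose pool 1, 2 or 3), with differences of -1.51 to -1.09 and an adjusted p of at most 0.148. It was also lost under 6 of 13 other settings, including the fit without the pools with pancreas transcripts (-1.52, adjusted p = 0.0547). In DBA/2J, H2ax was at 11.73, 11.23, 11.74 and 11.14 in controls and at 9.38, 9.82, 10.37 and 10.38 after the high dose, a difference of -1.48 ± 0.37 that fell short of the threshold (adjusted p = 0.0581) with no overlap of the groups. The strain difference of the high dose effect was -0.20 (95% interval -1.29 to 0.90). DBA/2J low dose pools were at 12.28, 11.01 and 12.60.

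Chek2, a checkpoint kinase downstream of Atm, was at 8.13, 8.21, 8.18 and 8.25 in C57BL/6J controls, 8.02, 7.98, 8.11 and 7.99 after the low dose and 8.05, 8.01, 7.99 and 8.11 after the high dose. All irradiated pools lay below the controls, by -0.16 ± 0.088 and -0.15 ± 0.088 (limma adjusted p = 0.408 and 0.359). In DBA/2J the controls were at 8.28, 8.09, 8.15 and 8.11, and the high dose pools at 7.97, 7.98, 8.05 and 8.02, again with no overlap. The low dose pools were at 8.66, 8.09 and 8.68, a called rise of 0.32 ± 0.096 (adjusted p = 0.0467) in which pool 2 had no share. Without pools 1 and 3, which leaves pool 2 alone in that group, the difference was -0.07.

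Rnf8 and Rnf168 are ubiquitin ligases that mark chromatin beside a break. Rnf8 was at 8.98, 8.68 and 9.10 in DBA/2J low dose, against 8.72, 8.62, 8.56 and 8.51 in controls, a called rise of 0.31 ± 0.082 (limma adjusted p = 0.0285). Without pools 1 and 3, which leaves a single low dose pool, the difference was 0.08. In C57BL/6J it ranged from 8.52 to 8.75 in controls and from 8.37 to 8.55 after the high dose, and the groups overlapped. In DBA/2J high dose Rnf168 lay below all controls (8.02 to 8.08 against 8.10 to 8.30) but missed the threshold (-0.12 ± 0.063, adjusted p = 0.462). Mre11a, the nuclease of the sensor complex, was at 9.54, 8.71 and 9.37 in DBA/2J low dose against 8.59 to 9.11 in controls (0.45 ± 0.15, adjusted p = 0.0742).

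Trp53bp1, which shields ends from resection and so favours end joining, had its lowest values in DBA/2J low dose. It was at 9.60, 10.23, 10.04 and 9.91 in C57BL/6J controls and at 9.37, 9.53, 9.40 and 9.72 in DBA/2J controls (-0.44 ± 0.16, limma adjusted p = 0.0921). DBA/2J high dose pools were at 9.89, 9.85, 9.67 and 9.88, and low dose pools at 9.04, 9.72 and 8.96. Here pools 1 and 3 were the lowest of all arrays and not the highest. Rad50 (7.98 to 8.15 over all pools) and the kinase Atm (8.12 to 8.33, detected on 4 arrays) had differences from control of at most 0.07 in size in either strain at either dose.

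Among end joining genes, Xrcc4, the scaffold of the end joining ligase, was the one member that was called higher after the high dose in C57BL/6J. It was at 8.51, 8.40, 8.22 and 8.37 in control pools, 8.59, 8.63, 8.47 and 8.45 after the low dose and 8.65, 8.71, 8.64 and 8.52 after the high dose. High dose pools were all above controls, by 0.25 ± 0.063 (limma adjusted p = 0.0220), and the call was lost in 4 of 8 fits that left out 1 pool (control pool 3 or 4, or high dose pool 1 or 2; adjusted p at most 0.0756) and in 2 of 13 other settings, median scaling and only the groups of the comparison. In DBA/2J, controls were at 8.49, 8.63, 8.52 and 8.58, high dose pools at 8.80, 8.75, 8.57 and 8.64, and low dose pools at 8.41, 8.50 and 8.33. The high dose difference there was 0.14 ± 0.063 (adjusted p = 0.380), with overlap. The strain difference of the high dose effect was -0.11 (95% interval -0.30 to 0.07).

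Xrcc6, the smaller Ku subunit that threads onto DNA ends, lay below the controls after irradiation in C57BL/6J, as most recombination genes did. It was at 8.97, 9.19, 8.94 and 9.21 in C57BL/6J controls, 8.61, 8.77, 8.82 and 8.84 after the low dose and 8.75, 8.73, 8.73 and 8.88 after the high dose, with both irradiated groups below all controls. The differences were -0.32 ± 0.18 and -0.31 ± 0.18 (limma adjusted p = 0.425 and 0.367). In DBA/2J it was at 9.59, 8.88, 9.00 and 9.00 in controls, 9.82, 8.91 and 9.99 after the low dose and 8.76, 8.80, 9.08 and 8.91 after the high dose. Prkdc, the catalytic subunit of the DNA-dependent kinase, ranged from 8.47 to 8.95 over all pools. Lig4, the ligase itself, ranged from 7.89 to 7.97, and Nhej1, the Xrcc4-like factor, from 7.91 to 8.05. None of Prkdc, Lig4 and Nhej1 was called in any of 9 comparisons. Lig4 and Nhej1 sat close to the lowest value, so their narrow range has little room to show a change.

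Of the single-strand break genes, Parp1, which senses nicks, was at 10.33, 10.64, 10.94 and 10.65 in C57BL/6J controls and at 10.49, 10.06, 10.47 and 10.76 after the high dose. The difference of -0.19 had a 95% interval of -0.51 to 0.12, and in DBA/2J it was 0.09 (-0.22 to 0.40). Xrcc1, the scaffold of single-strand break repair, ranged from 8.32 to 8.59 over all pools. Its probe was detected on 6 of 23 arrays and on no irradiated DBA/2J array, so its levels are uncertain. Neither gene was called in any comparison.

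**Figure D2:**
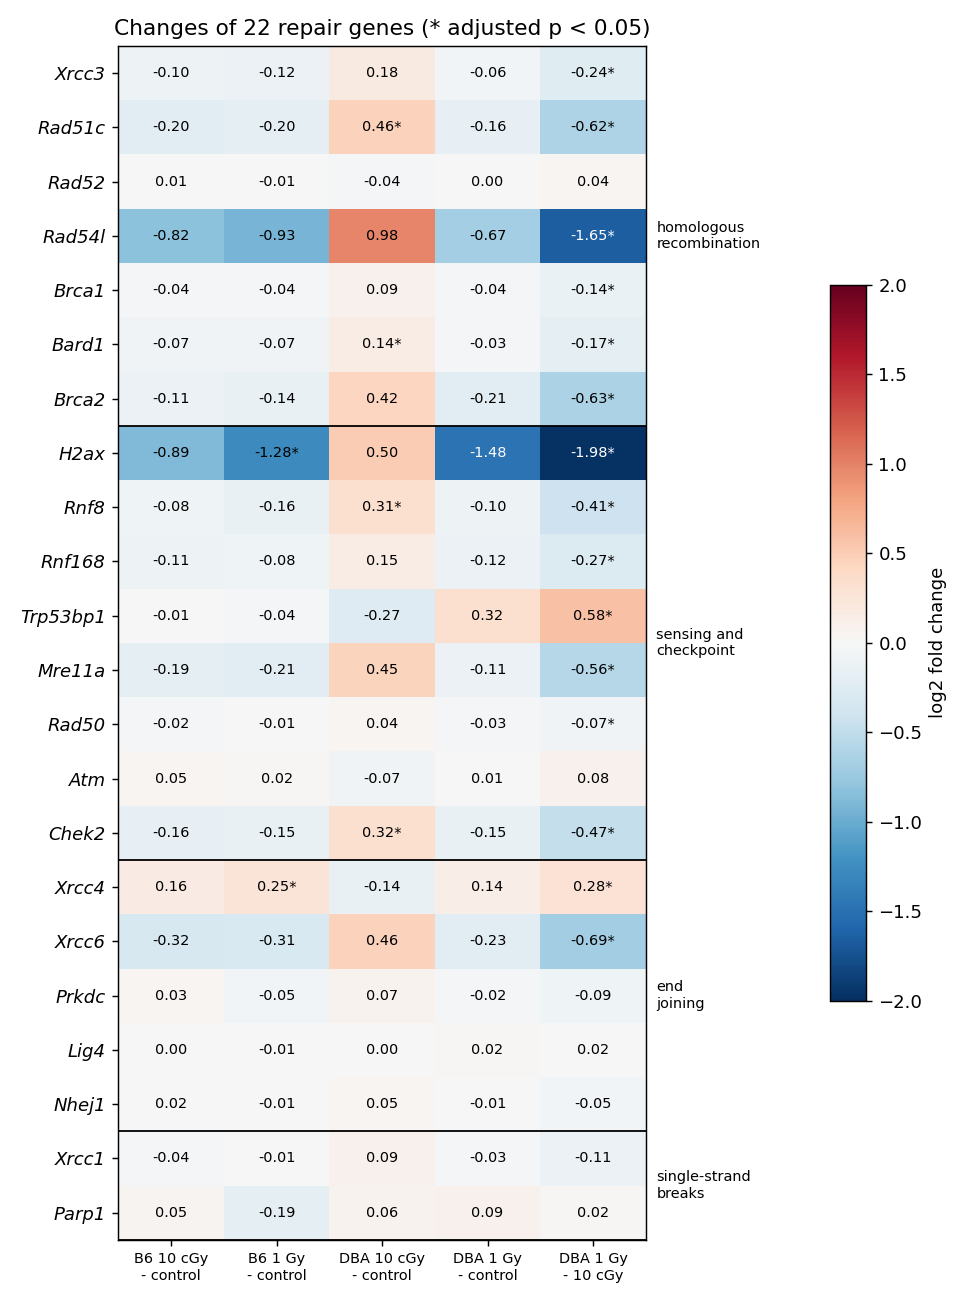
Log2 fold changes of the 22 measured genes, by role, in 5 comparisons (columns); colour gives the size and an asterisk an adjusted p under 0.05 (B6, C57BL/6J). Blue runs through most recombination and checkpoint genes in both C57BL/6J columns, while the DBA/2J low dose column is mostly red.

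The roles are set side by side here by how many genes separated by dose. For high dose against control in C57BL/6J, 6 of 7 recombination, 2 of 8 sensing and checkpoint and 2 of 5 end joining genes did not overlap (17% of features). These recombination, sensing and checkpoint genes were all lower, and of the 2 end joining genes Xrcc4 was higher and Xrcc6 lower. The median changes of the roles were -0.12, -0.12 and -0.01, against 0.01 over all features. For low dose against control in C57BL/6J these counts were 6, 1 and 1 (12.1% of all features), the medians were -0.10, -0.09 and 0.02, and no member was called (1.73% of features were; 3 members and 14.7% of features had an unadjusted p under 0.05). For high dose against control in DBA/2J the counts were 4, 3 and 0 (12.6% of features), the medians -0.06, -0.10 and -0.01, and again no member was called (1.21% of features were; 2 members and 12.4% of features had an unadjusted p under 0.05). No test compared the roles with one another.

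The background setting changed the size of these differences. The standard estimate put the mean background of an array at 158 to 227, above the signal of 79.2 to 109 at a detection p of 0.5. With the background read at that p, the median change of the recombination genes after the high dose in C57BL/6J was -1.11 in place of -0.12, that of sensing and checkpoint genes -0.31, and that of end joining genes -0.09. Rad54l (-1.64, adjusted p = 0.00206), Brca2 (-1.47, 0.00318) and Xrcc3 (-1.15, 0.0404) were then called lower beside H2ax (-1.06, 0.0281) in the same limma fit, and Xrcc4 stayed higher (0.51, 0.0224). That made 5 called members, where 8.12% of all features were called. Rad54l was also called after the low dose in C57BL/6J (-1.27, adjusted p = 0.0294), and H2ax after the high dose in DBA/2J (-1.23, 0.0351). In C57BL/6J the Rad54l probe was detected on 1 of 4 high dose arrays and on no low dose array. The Brca2 probe was detected on no irradiated array of that strain, so the sizes for Rad54l and Brca2 are uncertain.

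**Figure D3:**
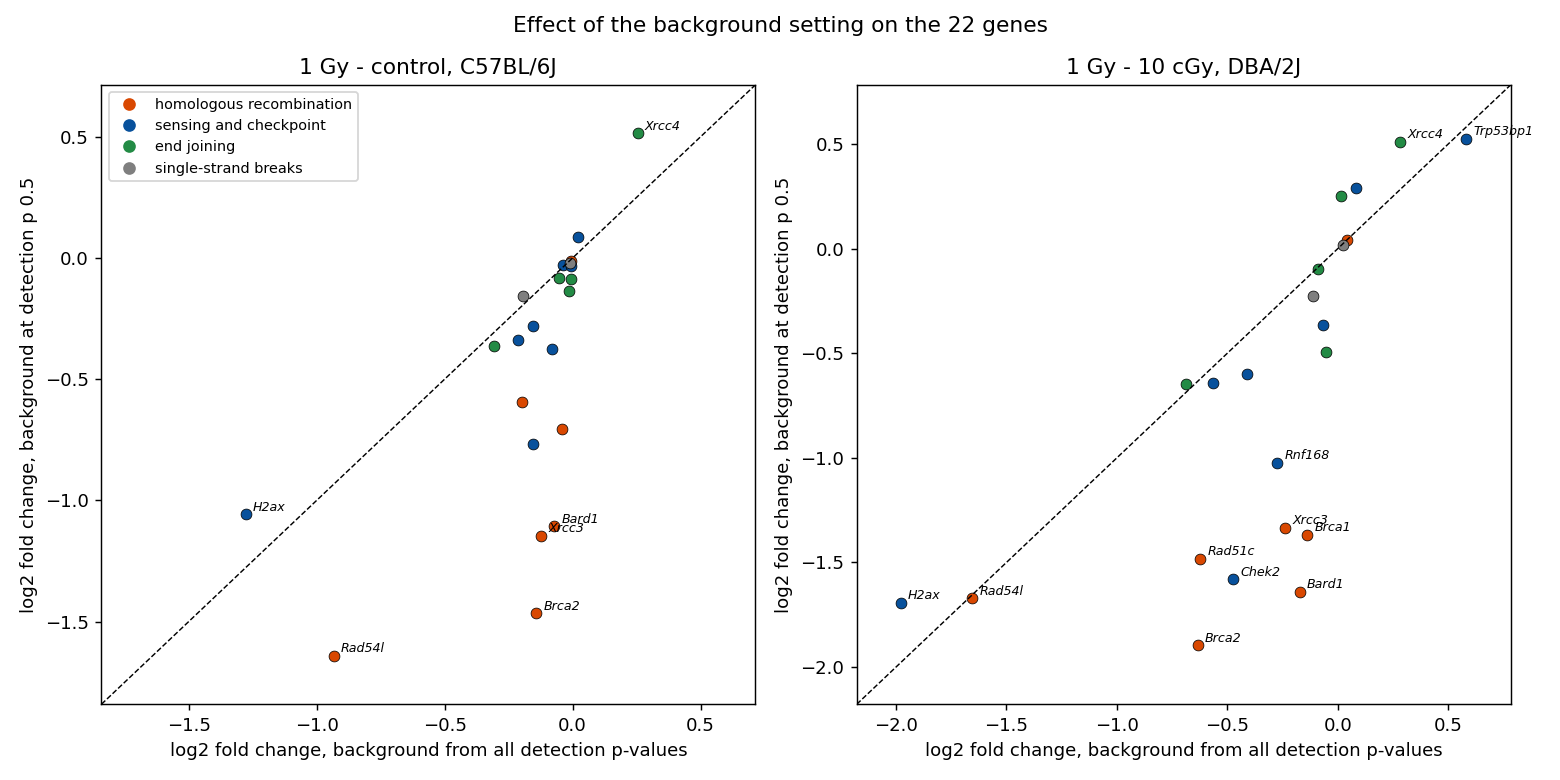
Log2 fold change of each of the 22 genes with the standard background estimate (x axis) against the background read at a detection p of 0.5 (y axis), in 2 comparisons; the dashed line marks equal values. In the C57BL/6J panel Brca2, Xrcc3 and Bard1 moved from between -0.14 and -0.07 to between -1.47 and -1.11, and Prkdc, Rad52, Parp1 and Xrcc1 stayed near the line.

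In DBA/2J low dose, 4 members were called higher than controls (Rad51c, Rnf8, Chek2 and Bard1) where 8.12% of features were called (4.24% higher, 3.88% lower), and 12 members and 26.9% of features had an unadjusted p under 0.05. No member's pools separated from the controls (12.5% of features did). The low dose effect differed between strains for 11 members, 10 of them higher in DBA/2J and Xrcc4 lower, where 17.7% of features were called (8.63% higher, 9.05% lower) and 33.8% had an unadjusted p under 0.05. The high dose pools of DBA/2J differed from the low dose pools for 15 members, 13 lower and 2 higher (Xrcc4 and Trp53bp1), where 33.4% of features were called (16.9% higher, 16.5% lower) and 43.8% had an unadjusted p under 0.05. Of the 22, 10 did not overlap between these doses (31.7% of features). High against low dose in DBA/2J was -1.98 ± 0.40 for H2ax (limma adjusted p = 0.00167), -1.65 ± 0.36 for Rad54l (0.00284), -0.63 ± 0.13 for Brca2 (0.00179) and 0.28 ± 0.069 for Xrcc4 (0.00505). These 3 comparisons share the low dose pools 1 and 3. Leaving out both pools leaves a single low dose pool in DBA/2J, so that fit cannot show whether these calls hold. The high against low dose difference for H2ax, for example, was then -1.03. Each of the 4 low dose calls was lost in 5 of 7 fits that left out 1 pool (control pool 2, 3 or 4, or low dose pool 1 or 3). In C57BL/6J the high dose differed from the low dose for no member (0.192% of features were called, and 5.64% of features and no member had an unadjusted p under 0.05), and 2 members did not overlap (4.37% of features), Nhej1 and Brca2, the latter not detected in either group. The high dose effect differed between strains for no member either (0.233% of features were called, and 4.25% of features and no member had an unadjusted p under 0.05). Between unirradiated strains no member was called, where 10% of features were, and 3 had an unadjusted p under 0.05 (19.7% of features). Brca2 alone did not overlap between the strains' controls (15.7% of features).

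Markers of dividing cells and of red cell precursors are given beside the recombination genes. The mean of 24 proliferation genes (of 32, without Mki67 and Cdk1) was 9.91 to 10.56 in C57BL/6J control pools, 9.09 to 9.31 after the low dose and 8.70 to 9.10 after the high dose. The mean of the 7 recombination genes was 8.25 to 8.43, 8.14 to 8.17 and 8.11 to 8.15 in the same groups. In DBA/2J the proliferation mean was 9.88 to 10.80 in controls and 9.07 to 9.50 after the high dose, and 11.39, 9.77 and 11.39 in the 3 low dose pools. After the high dose in C57BL/6J, 15 of the 24 proliferation genes were called lower and 23 had a lower mean (median of the list -1.25). In DBA/2J 3 were called lower after the high dose and all 24 had a lower mean (-0.88). The shares of all features called in these comparisons were 6.22% and 1.21%. The mean of 23 erythroid markers (of 27) was 11.00 to 11.89 in C57BL/6J controls, 9.35 to 10.57 after the low dose and 8.90 to 9.05 after the high dose. Of the 23, 12 were called lower after the low dose (1.73% of all features were called) and 18 after the high dose. The medians of the list were -1.72 and -2.22. In DBA/2J the mean was 11.69 to 12.52 in controls and 10.05 to 10.93 after the high dose, where 9 were called lower. In DBA/2J low dose it was 11.35 to 13.10, and none was called (8.12% of all features were). Granulocyte markers (12 of 17) were at 13.30 to 14.09 in DBA/2J low dose, against 9.39 to 11.79 in the controls, and B cell markers at 9.11, 10.21 and 9.44 against 10.04 to 10.73. In C57BL/6J the granulocyte mean was 11.39 to 13.47 in controls, 9.13 to 10.04 after the low dose and 9.25 to 9.79 after the high dose. At each dose 10 of the 12 were called lower and all 12 had a lower mean (medians -3.35 and -3.40). The mean of 10 T cell markers (of 14) was 9.88 to 10.17 in C57BL/6J controls, 10.32 to 10.83 after the low dose and 10.40 to 10.45 after the high dose. At each dose 3 of the 10 were called higher and all 10 had a higher mean. The part of these cell types in the changes of the repair genes was not tested.

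**Figure D4:**
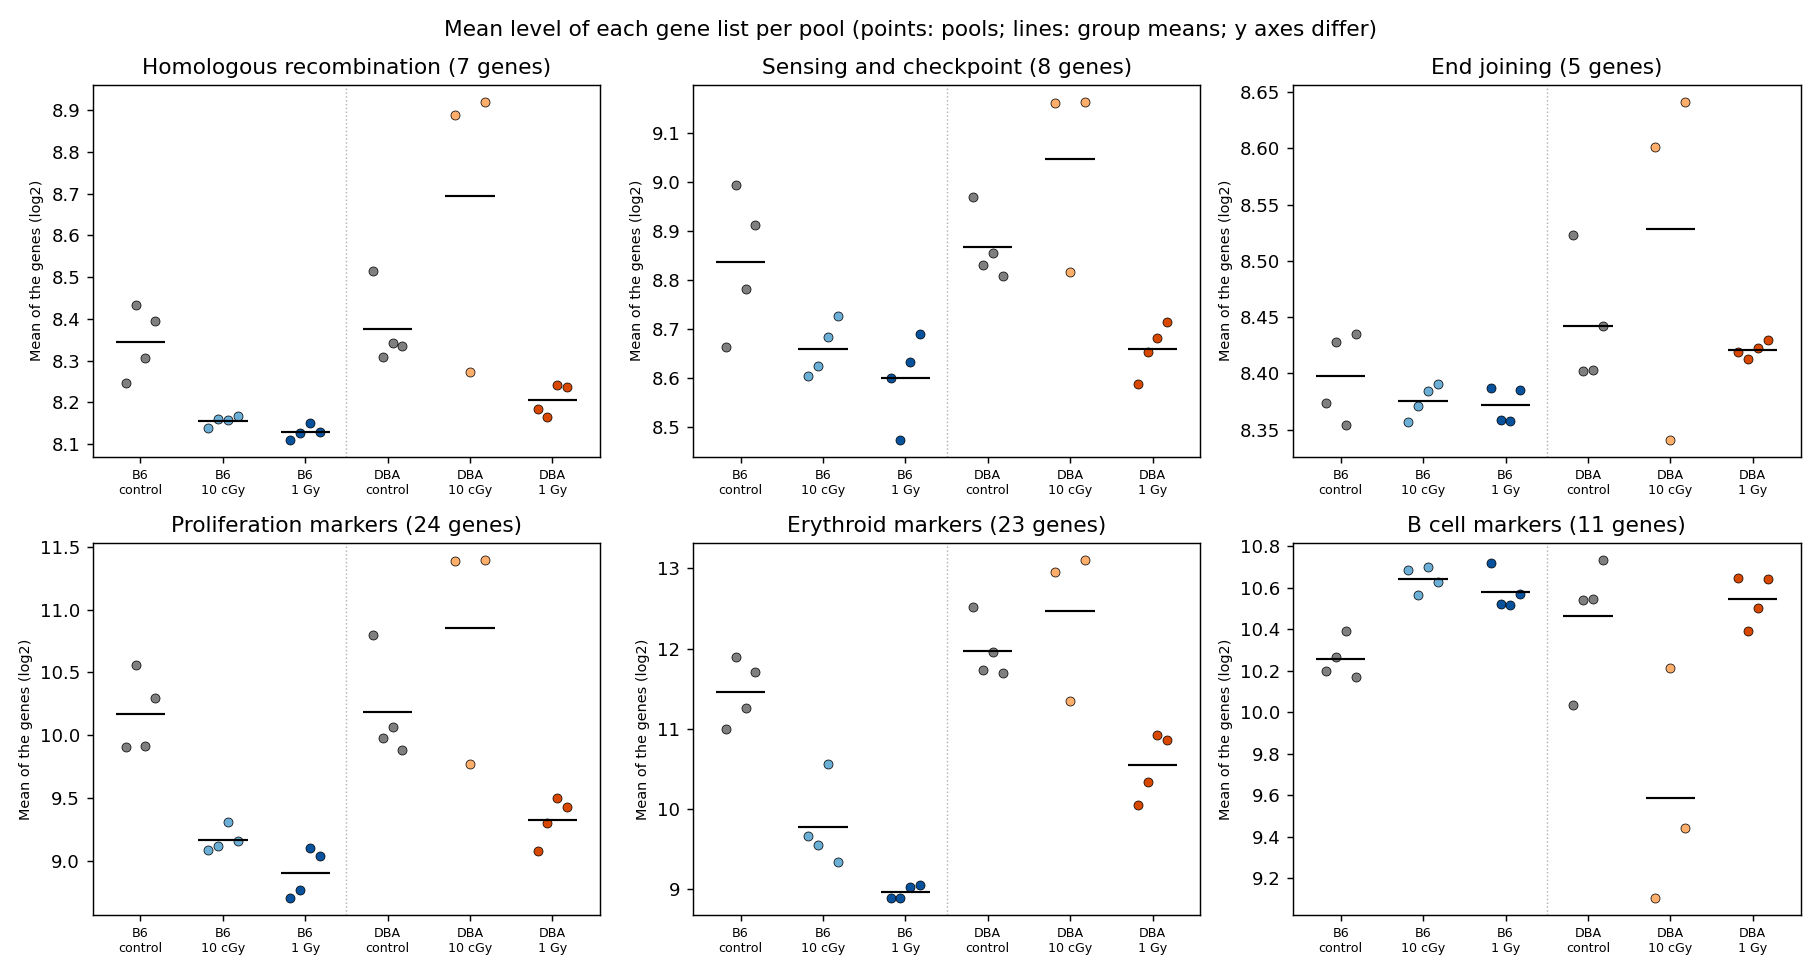
Mean log2 level of 3 groups of repair genes (top) and of proliferation, erythroid and B cell markers (bottom) in each pool; points are pools and lines group means, and y axes differ. Recombination genes, proliferation markers and erythroid markers were lower in irradiated C57BL/6J pools and highest in pools 1 and 3 of DBA/2J low dose, where B cell markers were lowest.

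Of 93 other genes of the same pathways, 68 were measured. In C57BL/6J, 2 of the 68 were called after the high dose, and the median change of the list was -0.01, against 0.01 over all features (6.22% of which were called). Paxx, a small relative of Xrcc4 that stabilises Ku at DNA ends, was at 8.09, 8.10, 8.08 and 8.09 in controls, 8.21, 8.23, 8.08 and 8.29 after the low dose and 8.38, 8.52, 8.49 and 8.46 after the high dose. The rise of 0.37 ± 0.049 (limma adjusted p = 0.000168) held in all 8 fits that left out 1 pool and under all 13 other settings. Paxx was also called in DBA/2J, at 8.10, 8.10, 8.13 and 8.16 in controls and 8.38, 8.39, 8.31 and 8.31 after the high dose (0.23 ± 0.049, adjusted p = 0.0346), though 7 of 8 such fits, all but the one without high dose pool 4, lost this call. Topbp1, an activator of the kinase Atr, fell in C57BL/6J (-0.24 ± 0.058, adjusted p = 0.0201) and was at -0.09 in DBA/2J (adjusted p = 0.562). The Topbp1 call was lost in 4 of 8 such fits (control pool 2 or 4, or high dose pool 1 or 4) and without the pools with pancreas transcripts (-0.21, adjusted p = 0.0944). After the low dose in C57BL/6J none of the 68 was called and 9 had an unadjusted p under 0.05 (1.73% and 14.7% of all features). Paxx rose also against the low dose in C57BL/6J (0.26 ± 0.049, adjusted p = 0.0346), a call that 6 of 8 such fits and 8 of 13 other settings lost.

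Between unirradiated strains 3 of these 68 genes were called, all lower in DBA/2J, a smaller share than the 10% of all features called there. Parp3, which acts with Aplf in end joining, was at 11.29, 11.46, 11.49 and 11.18 in C57BL/6J controls and at 9.77, 10.39, 10.61 and 10.62 in DBA/2J controls (-1.01 ± 0.25, limma adjusted p = 0.0113). Parp2, a second nick sensor, differed by -0.60 ± 0.11 (adjusted p = 0.00109), and Babam1, of the Brca1-A complex, by a log2 difference of -0.50 ± 0.098 (adjusted p = 0.00187). The controls of the strains did not overlap for any of the 3, which were picked by their calls (15.7% of all features did not overlap). A base difference between strains under a probe was not tested.

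In DBA/2J low dose 4 of the 68 were called higher and 1 lower, and against the high dose 35 of the 68 were called, 31 of them lower after the high dose (8.12% and 33.4% of all features were called). The lower genes included the replication ligase Lig1 (-1.66 ± 0.39, limma adjusted p = 0.00409), Clspn, which links Atr to Chek1 (-1.78 ± 0.40, 0.00317), and Rad51ap1, a recombination factor (-1.21 ± 0.26, 0.00242). Without low dose pools 1 and 3, which leaves a single low dose pool, these differences were -0.22 for Lig1, -0.21 for Clspn and -0.19 for Rad51ap1.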

How the data were processed

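Spleen RNA of 23 pools was hybridised to 1-colour Illumina arrays. The deposited table holds probe signal intensity on a linear scale, not normalized per the file headers, and the authors deposited a detection p-value beside each. The authors' processed log2 values were made with lumi, per the submitters' processing notes. Its version, transform and centring are not given in the sources used here.

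From the intensities, the background was estimated from the detection p-values (normexp, offset 16), arrays were quantile normalized and log2 was taken, with limma 3.58.1 in R 4.3.3. Of 34492 probes, 18423 passed the detection filter and gave 17176 features. Symbols came from GEO's platform annotation: 20256 probes had 1 symbol, 9 several and 14227 none. Group means were fitted with lmFit and eBayes and 9 contrasts tested, two-sided. Errors are SEs of that fit. The samples are pools of 2 mice, so p-values measure the spread between pools. The number of arrays limits the precision.

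All members that passed the filter could be named, with pool values for those called, and at most 8 called genes per comparison from the 93 others. Members, lists and rules were chosen with earlier results of these data known. Alternatives changed the background, normalization, filter, probe choice, source of values, spread, samples and groups in the fit. The fit was tested on simulated data. No slide or scan batch is given in the labels or files, so none was fitted.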

Additional observations from a re-analysis of the deposited data

Results flagged for a closer look

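In groups of 4 pools, 6 of 110 gene and group pairs (5.45%) had 1 pool far from the other 3 on the log2 scale. Chance flags about 1 in 20, so 6 is near what chance gives. Pool 1 of the DBA/2J controls held 3 of them, and it was high for Rad54l (9.79, others 8.97 to 9.05), Mre11a (9.11, others 8.59 to 8.68) and Xrcc3 (8.05, others 7.96 to 7.98). The same pool had the highest marker means of the DBA/2J controls for proliferation (10.80, others 9.88 to 10.06), erythroid (12.52, others 11.69 to 11.96) and granulocyte genes (11.79, others 9.39 to 9.98), and their part was not tested. Pool 4 of C57BL/6J high dose was high for Xrcc6 (8.88, others at most 8.75) and low for Rad52 (8.83, others at least 9.01). Pool 2 of the C57BL/6J controls was high for Rad52 (9.06, others at most 8.96).

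The low dose effect differed between the strains by the interaction test of the limma fit (adjusted p under 0.05) for 11 genes, given as DBA/2J minus C57BL/6J on the log2 scale. Of all features, 17.7% were called in this comparison (8.63% higher, 9.05% lower). Among recombination genes the difference was 1.80 for Rad54l, 0.67 for Rad51c, 0.54 for Brca2, 0.28 for Xrcc3, 0.21 for Bard1 and 0.13 for Brca1. Among sensing and checkpoint genes it was 0.64 for Mre11a, 0.49 for Chek2 and 0.40 for Rnf8. Of the end joining genes, Xrcc6 had a difference of 0.78 and Xrcc4 one of -0.30. None of the 11 genes was called when pool 1 of DBA/2J low dose alone was left out, or pool 3 alone. Leaving out both pools leaves a single pool in that group, so that fit cannot show whether the 11 calls hold.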

How the results depend on the processing

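Calls of members depended on the setting. Of all features, 6.22% were called after the high dose in C57BL/6J, and 8.12% with the background read at detection p 0.5. For the low dose in DBA/2J these shares were 8.12% and 10.3%. Shares under the other settings are not given here. The counts below thus cannot tell a change of these members from a change over all features. After the high dose in C57BL/6J 2 members were called, against 4 with no background correction, 5 with the background read at detection p 0.5, 0 with median scaling, 1 with cyclic loess, 6 with array weights, 4 with only the groups of the comparison in the fit, 1 without the 2 pools with pancreas transcripts, and 0 to 2 without 1 pool. After the high dose in DBA/2J the count was 0, and 1 under no background correction, background at detection p 0.5, array weights and robust eBayes with trend. After the low dose in C57BL/6J it was 0, and 1 under no background correction, background at detection p 0.5 and array weights. After the low dose in DBA/2J it was 4, against 2 with no background correction, 1 with background at detection p 0.5, 0 with median scaling, 1 with cyclic loess, 1 with no filter, 14 with array weights, 0 with only the groups of the comparison, and 0 to 15 without 1 pool (15 without low dose pool 2, 9 without control pool 1, and 0 without low dose pool 1 or 3 or control pool 2, 3 or 4). Between unirradiated strains it was 0, against 1 with median scaling, 2 with array weights, 2 without the pools with pancreas transcripts, and 0 to 2 without 1 pool. For the strain difference of the low dose effect it was 11, against 4 with median scaling, 0 with only the groups of the comparison, and 0 to 14 without 1 pool (0 without DBA/2J low dose pool 1 or 3). For high against low dose in DBA/2J it was 15, against 0 with only the groups of the comparison and 9 to 17 without 1 pool. An alternative chosen after seeing the data left out both DBA/2J low dose pools that stand apart. It leaves a single pool in that group, so it cannot show whether calls hold. In that setting the DBA/2J low dose difference turned for Chek2 (-0.068), Bard1 (-0.023), Parp3 (0.050) and Brip1 (-0.11), the strain difference for Brca2 (-0.024), and high against low dose in DBA/2J for Xrcc3 (0.014). Where no construction of the alternative shows the cause, the cause was not tested. Over members and 11 other named genes, 6 values reversed, 374 lost a call, 145 gained one and 6114 did neither. No paired analysis was possible because the pool numbers in the titles are not shared between groups. Signals near the lowest value of the scale (Brca1, Bard1, Lig4, Nhej1) limit what these arrays can show.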

Other observations

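The transcription factor p53 is activated by Atm and Chek2. Of its 19 measured targets (20 in the list), 7 were called higher after the high dose in C57BL/6J and 4 in DBA/2J by the limma fit. None was called lower (6.22% and 1.21% of all features were called). The list's median change was 0.16 and 0.14, against 0.01 and 0.00 over all features. None was called after the low dose in C57BL/6J, where 5 had an unadjusted p under 0.05 (1.73% and 14.7% of all features). In DBA/2J low dose 2 were called higher and 1 lower (8.12% of all features were called). The mean of the list was 8.55 to 8.62 in C57BL/6J controls and 8.83 to 9.08 after the high dose, with no overlap. In DBA/2J it was 8.53 to 8.58 and 8.78 to 8.88.

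Of the 6 genes with a probe that was detected on fewer than 3 arrays, Blm, the helicase that dissolves crossed recombination intermediates, had signals of 382 to 3351 and was detected on 1 array. Its log2 values were 9.79, 10.80, 9.56 and 10.56 in C57BL/6J controls, 8.70, 8.65, 9.02 and 8.65 after the low dose, and 8.33, 8.36, 8.55 and 8.39 after the high dose. Fitted with no filter, the high dose difference was -1.77 ± 0.35 (limma adjusted p = 0.00801). In DBA/2J, Blm was at 11.02, 10.36, 10.16 and 10.30 in controls and at 9.10, 9.31, 9.52 and 9.67 after the high dose (-1.06 ± 0.35, adjusted p = 0.267), and at 11.83, 9.88 and 11.84 after the low dose. All irradiated C57BL/6J pools and all high dose DBA/2J pools were below their controls. The median detection p of Blm was 0.365. Over the array, 190 of 6928 probes with a mean signal over 500 failed the filter.

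Nbn, the third subunit of the sensor complex, had signals of 317 to 634 and was detected on no array, and its no-filter difference after the high dose in C57BL/6J was -0.13 ± 0.073 (limma adjusted p = 0.492). Xrcc5, the larger Ku subunit, was detected on no array (median signal 76.1), and Chek1 (68.8 to 156), Polq (93.7 to 221) and Atr (94.8 to 119, detected on 2 arrays) fell under the filter as well. No array values of Dclre1c, Xrcc2, Palb2, Rbbp8 and Mdc1 were analysed here.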
